A study of Drosophila melanogaster with 24 samples.

Results

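Small nucleolar RNAs (snoRNAs) are short, stable noncoding RNAs, and the 273 genes of this kind described here are those whose symbol starts with snoRNA: among the 17476 genes of a Drosophila RNA-seq count table. The rule used the name alone and no measured value, and below a gene is given without that prefix. By name, 127 of the 273 are box C/D genes (names in Me, CD, U3, U14 and similar), 114 are box H/ACA genes (Psi or aca) and 32 could not be classed from the name. Their counts come from 24 libraries of sorted embryonic mesoderm, 4 from each of 6 genotypes, labelled as biological replicates.

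Box C/D snoRNAs guide 2'-O-methylation of ribosomal and spliceosomal RNA and carry the methyltransferase fibrillarin, whereas box H/ACA snoRNAs guide the conversion of uridine to pseudouridine through the synthase Nop60B, the fly dyskerin. U3 and U14 are box C/D snoRNAs that act in cleavage of the ribosomal RNA precursor. Many names state the modified position, so that Psi28S-1180 is named for a pseudouridine of 28S ribosomal RNA and Me28S-C2645 for a methylated cytosine. Or- marks orphans with no assigned target. Most fly snoRNAs are processed out of introns of host genes, often genes of ribosomal proteins, and the Uhg (U snoRNA host gene) transcripts are hosts whose spliced exons have little coding role. Several guides exist in lettered copies (a, b, c) that share a target.

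The study asked which genes depend on the Forkhead box transcription factors jumu and CHES-1-like in the embryonic mesoderm, the tissue that gives rise to the heart. In every genotype twi-GAL4, active in the mesoderm, drove the green fluorescent reporter UAS-2EGFP, and fluorescent cells were sorted from embryos of stage 11 and early stage 12. In jumu loss-of-function embryos (jumu LOF) the third-chromosome deficiency Df(3R)Exel6157 was carried by both homologues, the one with twi-GAL4 and the one with UAS-2EGFP. In CHES-1-like loss-of-function embryos (CHES-1-like LOF) the X-chromosome deficiency Df(1)CHES-1-like1 was combined with 1 copy of each of twi-GAL4 and UAS-2EGFP, and double loss-of-function embryos (double LOF) joined Df(1)CHES-1-like1 with the 2 recombined chromosomes of jumu LOF. Overexpressing embryos carried twi-GAL4 and UAS-2EGFP over UAS-jumu (jumu OE) or over the transgene UAS-CHES-1-like (CHES-1-like OE), and wild-type embryos carried the driver and reporter over an unmarked chromosome. Df denotes a chromosomal deficiency, and Df(3R)Exel6157 removes more genes than jumu. Each genotype came from its own cross, so the named alleles and the rest of the genetic background cannot be told apart.

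Libraries held 15197022 to 72519855 counts, and no 2 libraries of a genotype were alike enough to be 1 library counted again. Jumu averaged 29.9 CPM (counts scaled to a fixed library total, with TMM factors) in jumu LOF, 21.9 in double LOF and 676 in jumu OE, against 122 in wild-type. CHES-1-like averaged 1.14 CPM in CHES-1-like LOF, 1.20 in double LOF and 1532 in CHES-1-like OE, against 156 in wild-type. Both genes moved as the labels state, and what the jumu counts left in the 2 jumu-deficient genotypes come from was not tested. The 7 listed mesodermal markers (twi, Mef2, tin, bap, how, htl, zfh1) summed to 939 to 1553 CPM across all libraries, and none of them was at 0. Summed levels of 5 hemocyte markers ran from 472 to 553 CPM in CHES-1-like OE, from 1051 to 1105 CPM in CHES-1-like LOF, from 633 to 701 CPM in double LOF and from 667 to 763 CPM in jumu OE, against 844 to 889 CPM in wild-type. Neural, epidermal and germline marker lists (6, 5 and 5 genes) summed to 250 to 531, 221 to 343 and 10.8 to 25.5 CPM over the mutant and overexpressing libraries, against 318 to 354, 340 to 352 and 15.4 to 18.4 CPM in wild-type. The part of these lists in the results below was not tested. In bulk cells, fewer cells of a type and less RNA per cell cannot be told apart.

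The 5 lowest shares of all counts on snoRNA genes fell in 1 library of each mutant or overexpressing genotype. These were replicate 1 of jumu LOF (0.874%), CHES-1-like LOF (0.776%), jumu OE (0.579%) and CHES-1-like OE (0.808%) and replicate 2 of double LOF (0.715%), while the other 19 libraries lay between 0.899% (CHES-1-like LOF replicate 4) and 1.52%. Each of the 5 also had the lowest share of counts on 7SL RNA, the RNA of the signal recognition particle, within its genotype. Ribosomal RNA took 28.97% to 32.6% of counts in CHES-1-like LOF, against 20.5% to 22.9% in wild-type. The part of these differences in the snoRNA results was not tested. Several counts of calls are given both ways, and named genes whose calls were lost without one of the 5 libraries are stated as such. Means and sums of levels are over all 4 libraries of a genotype.

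Positions were found for 243 of the 273 genes in the Release 6 annotation, and 212 of these lie wholly in an intron of a host gene. A further 18 overlap a host exon, and 13 have no other gene on their strand. The 78 hosts are led by Arpc2 with 17 members, Uhg1 with 16, dom with 15, RpS5a with 14, Uhg5 with 11 and kra with 8. In all, 47 members lie in Uhg hosts and 70 in hosts that encode ribosomal proteins. Lettered copies form 47 families with 144 members, and reads of near-identical copies, like reads of a snoRNA and the intron around it, can be assigned to the wrong gene, so values of single copies are uncertain to that extent.

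With at least 3 counts taken as detected, 242 of the 273 genes were detected in at least 1 library and 199 in every library. By class, detection in every library covered 68 of 127 box C/D, 105 of 114 box H/ACA and 26 of 32 unclassed genes. No count fell on 24 genes in any of the 24 libraries, of which 20 are box C/D, among them all 4 copies of Me28S-G1083. Genes detected in all 4 libraries of a genotype numbered 217 in jumu LOF, 204 in CHES-1-like LOF, 217 in double LOF, 215 in jumu OE, 223 in CHES-1-like OE and 218 in wild-type. Per library the number averaged 217.5 ± 8.70 in CHES-1-like LOF (SD, n = 4), the lowest of the genotypes, against 227.75 ± 7.80 in wild-type, and it follows depth as well as expression. SnoRNA genes took 1.15 ± 0.215% of counts in jumu LOF, 0.922 ± 0.110% in CHES-1-like LOF, 1.25 ± 0.364% in double LOF, 1.06 ± 0.356% in jumu OE and 1.24 ± 0.294% in CHES-1-like OE, against 1.22 ± 0.120% in wild-type (SD, n = 4 each). The 4 CHES-1-like LOF shares (0.776%, 1.01%, 1.01% and 0.899%) all lay below the 4 wild-type shares (1.14%, 1.28%, 1.36% and 1.11%), and every other genotype overlapped wild-type. Without ribosomal RNA in the total this separation was lost. The CHES-1-like LOF shares were then 1.09%, 1.49%, 1.47% and 1.29%, against 1.47%, 1.61%, 1.72% and 1.42% in wild-type.

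**Figure D1:**
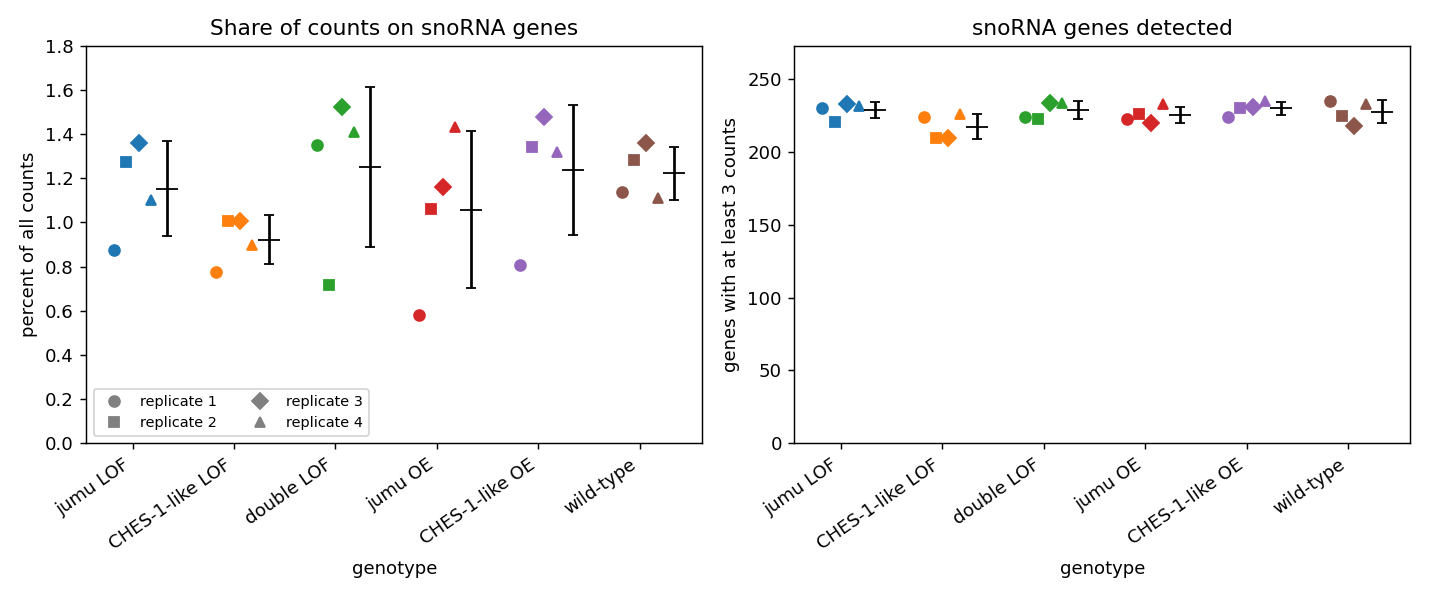
Share of all counts on snoRNA genes in percent (left) and number of snoRNA genes with at least 3 counts (right) in each of the 24 libraries, by genotype, with marker shapes for the replicate number and bars for mean and SD of 4 libraries. CHES-1-like LOF lies below wild-type in share of all counts, a separation that is lost when ribosomal RNA is left out of the total. The lowest shares of all fall in 1 library of each mutant or overexpressing genotype.

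In wild-type mesoderm the snoRNA counts were concentrated in few genes. The 3 U3 genes stood highest, with U3:54Aa at 1571 ± 152, U3:54Ab at 1442 ± 144 and U3:9B at 973 ± 31.1 CPM (SD, n = 4), and held 34.4% of all wild-type snoRNA CPM. The next 7 were Psi18S-176 at 506 CPM, the H/ACA orphan Or-aca5 at 454, Psi28S-3342 at 443, Psi28S-291 at 401, Psi28S-2566 at 352, Tudor-SN-a at 322 and Psi18S-531 at 319, which brought the share of the first 10 to 58.5%. Box H/ACA genes together took 55.3% of snoRNA CPM and box C/D genes 36.9%, of which 2.51 points remained once the 3 U3 genes were left out. Per kilobase of annotated length, the median level in wild-type was 91.5 CPM for box H/ACA genes and 15.2 CPM for box C/D genes, whose median lengths were 140 and 79 bases. A length was available for 100 of the 127 box C/D genes and 111 of the 114 box H/ACA genes. The part of length in this difference was not tested.

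Each genotype was compared with wild-type by edgeR's quasi-likelihood test over all genes, and a gene is called higher or lower where its Benjamini-Hochberg adjusted p, written here as edgeR adjusted p, was under 0.1 and its log2 fold change lay beyond 0.5 in either direction. After the 30% of genes with the lowest mean level were set aside, 224 to 227 snoRNA genes entered each comparison. In jumu LOF 40 of 227 were called (17.6%), 26 higher and 14 lower, where 19.4% of all genes were called, 9.83% higher and 9.54% lower. In CHES-1-like LOF 30 of 224 were called (13.4%), 20 higher and 10 lower, beside 15.4% of all genes, 6.24% higher and 9.19% lower. Double LOF had 43 of 227 called (18.9%), 16 higher and 27 lower, beside 24.7% of all genes, 11.9% higher and 12.8% lower.

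In the overexpressing genotypes the calls were more often lower for jumu, except when libraries were scaled to their summed snoRNA counts (27 higher and 12 lower), and more often higher for CHES-1-like under every scaling run. In jumu OE 36 of 226 snoRNA genes were called (15.9%), 13 higher and 23 lower, beside 15.7% of all genes, 7.99% higher and 7.68% lower. In CHES-1-like OE 52 of 226 were called (23.0%), 49 higher and 3 lower, beside 33.1% of all genes, 16.7% higher and 16.5% lower. The median snoRNA log2 fold change was -0.19 in jumu OE and 0.23 in CHES-1-like OE, where the median over all genes was 0.01 in both. Without replicate 1 the calls were 13 higher and 30 lower in jumu OE and 44 higher and 7 lower in CHES-1-like OE. Across all 6 genotypes 120 of 226 snoRNA genes differed (53.1%), beside 66.7% of all genes, and of the 273 genes 146 were called in no comparison with wild-type, 82 in 1, 26 in 2, 10 in 3, 8 in 4 and 1, U14:30Ea, in all 5. The comparisons share the 4 wild-type libraries.

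**Figure D2:**
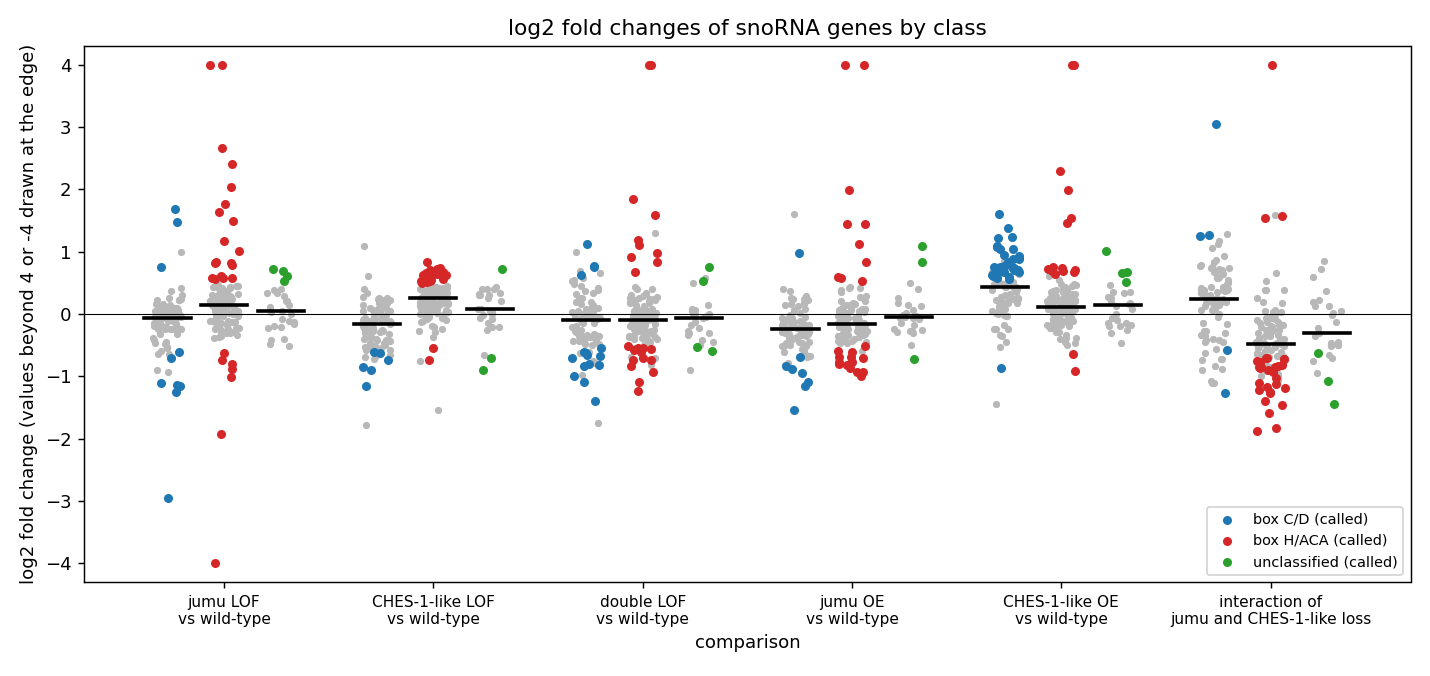
Log2 fold change against wild-type, and the interaction of the 2 losses, for each snoRNA gene kept by the expression filter, by class, with called genes in colour, other genes in grey, the class median as a black bar, and values beyond 4 in either direction drawn at the edge. In CHES-1-like OE 31 of 89 box C/D genes were called higher and 1 lower, beside 16.7% and 16.5% of all genes. In CHES-1-like LOF 19 of 108 box H/ACA genes were called higher and 2 lower, beside 6.24% and 9.19% of all genes.

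The counts differ by class. In CHES-1-like OE 16.7% of all genes were called higher and 16.5% lower. Box C/D genes had a median log2 fold change of 0.43 in this genotype, with 31 of 89 called higher and 1 lower. Box H/ACA genes had a median of 0.12, with 14 of 110 called higher and 2 lower, a smaller share higher than of all genes. Of the box C/D genes called higher there, 17 lie in Uhg hosts and 7 in ribosomal protein hosts. Of 43 members in Uhg hosts of any class, 19 were called higher (median 0.52), among them 6 of 16 in Uhg1, 5 of 6 in Uhg4 and 4 of 11 in Uhg5, and none lower (0 by DESeq2 and 0 at an unadjusted edgeR p under 0.05). Without replicate 1 the box C/D count was 33 higher and 3 lower, and with the libraries scaled to their summed snoRNA counts it was 20 higher and 2 lower. In jumu OE the box C/D genes had 1 higher and 7 lower of 89 (median -0.24) and members of Uhg hosts 1 higher and 5 lower of 43 (median -0.34), while box H/ACA genes had 10 higher and 15 lower of 110 (median -0.17). Of all genes 7.99% were called higher and 7.68% lower in jumu OE, so the share of box C/D genes called lower was near that of all genes. The difference between the classes was not tested.

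In CHES-1-like LOF the box H/ACA genes had a median log2 fold change of 0.25, with 19 of 108 called higher and 2 lower, whereas the box C/D genes had a median of -0.17, with 6 of 89 lower and none higher (0 by DESeq2 and 1 at an unadjusted edgeR p under 0.05). Of all genes 6.24% were called higher and 9.19% lower, so the share of box C/D genes called lower was under that of all genes. Without replicate 1 the H/ACA counts were 28 higher and 1 lower. The higher calls depend on how libraries are scaled. With library totals in place of the TMM factors, which set the bulk of genes as the standard, the median over all genes fell by 0.56 in this genotype, all 90 snoRNA calls were lower, and the median H/ACA gene was at -0.29. The corresponding shifts of all genes were -0.18 in jumu LOF, 0.34 in double LOF, 0.04 in jumu OE and -0.05 in CHES-1-like OE, and under library totals the snoRNA calls were 18 higher and 30 lower in jumu LOF, 41 higher and 3 lower in double LOF, 12 higher and 14 lower in jumu OE and 43 higher and 5 lower in CHES-1-like OE. Scaled to summed snoRNA counts, 6 were higher and 5 lower in CHES-1-like LOF, 20 higher and 19 lower in jumu LOF, 24 higher and 7 lower in double LOF and 36 higher and 7 lower in CHES-1-like OE.

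In jumu LOF 19 of 111 box H/ACA genes were called higher and 7 lower (median 0.15), and 3 of 89 box C/D genes higher and 7 lower (median -0.06), beside 9.83% of all genes higher and 9.54% lower. Without replicate 1 the H/ACA counts were 29 higher and 5 lower. Double LOF had 10 higher and 13 lower of 111 box H/ACA genes (median -0.09) and 4 higher and 12 lower of 89 box C/D genes (median -0.10), and without replicate 2 these became 10 higher and 9 lower and 6 higher and 16 lower. With all libraries 11.9% of all genes were called higher and 12.8% lower, so both shares of box H/ACA genes were under those of all genes. The members in ribosomal protein hosts contributed 6 higher and 7 lower of 65 in jumu LOF, 7 higher and 1 lower of 65 in CHES-1-like LOF, 2 higher and 11 lower of 65 in double LOF, 1 higher and 12 lower of 64 in jumu OE and 9 higher of 65 in CHES-1-like OE, to be read beside the shares of all genes given above for each genotype.

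Whether the loss of both genes differed from the sum of the single losses on the log2 scale was tested as an interaction over the 16 libraries of the 3 loss-of-function genotypes and wild-type. It was called for 38 of 226 snoRNA genes (16.8%), 6 above and 32 below the sum, where 12.2% of all genes were called, 6.00% above and 6.23% below. Of the 32 below the sum 27 were box H/ACA genes, whose median was -0.48, while the median of box C/D genes was 0.24. Without double LOF replicate 2 there were 15 above and 46 below, and H/ACA genes made up 37 of the 46. Library totals turned the balance to 125 above and 3 below, with a shift of all genes of 1.08, and summed snoRNA counts gave 11 above and 5 below. The side of the sum on which the median box H/ACA gene lay thus depended on the scaling. It stayed below the median box C/D gene, at 0.55 and 1.28 under library totals and at 0.02 and 0.74 with summed snoRNA counts.

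U3, the most abundant of these RNAs, was called with the TMM factors in 1 comparison and for 1 of its genes. The 3 U3 genes summed to 3917 ± 1034 CPM in jumu LOF, 4049 ± 1053 in CHES-1-like LOF, 2895 ± 1085 in double LOF, 3319 ± 1029 in jumu OE and 4445 ± 1312 in CHES-1-like OE, against 3986 ± 320.0 in wild-type (SD, n = 4 each). Neither U3:54Aa nor U3:54Ab was called in any comparison with wild-type, with log2 fold changes between -0.43 and 0.27. Under library totals both were called lower in CHES-1-like LOF. There U3 took 0.214% to 0.332% of all counts, against 0.372% to 0.482% in wild-type. U3:9B (X, 10348125 to 10348337, plus strand) had 699, 433, 795 and 735 CPM in double LOF, against 959, 947, 1018 and 969 CPM in wild-type. All double LOF values were below all wild-type values, and the lowest was the library with few snoRNA counts. Its log2 fold change was -0.54 (SE 0.16, edgeR adjusted p = 0.031), and without that library -0.39 and no longer called.

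The 2 U14 genes share the host Uhg2 and moved in opposite directions in 3 genotypes. U14:30Ea (2L, 9894205 to 9894285, minus strand) was at 2.04, 4.46, 6.40 and 4.76 CPM in jumu LOF, 0.663, 0.974, 1.05 and 0.997 in CHES-1-like LOF, 5.2, 1.02, 4.26 and 3.56 in double LOF, 1.8, 4.34, 2.39 and 3.99 in jumu OE and 2.59, 5.05, 3.37 and 3.83 in CHES-1-like OE, against 1.4, 1.72, 2.22 and 1.44 in wild-type. Only CHES-1-like LOF lay wholly below wild-type and only CHES-1-like OE wholly above it. Its log2 fold changes were 1.48 (SE 0.25, edgeR adjusted p = 6.9e-05), -0.86 (SE 0.25, 0.015), 1.13 (SE 0.36, 0.044), 0.98 (SE 0.25, 0.012) and 1.22 (SE 0.20, 0.00026) in the order of genotypes just given. U14:30Eb (2L, 9893946 to 9894026, minus strand) was at 0.654, 1.08, 1.43 and 1.38 CPM in jumu LOF, 1.88, 0.368, 1.30 and 1.83 in double LOF and 0.747, 2.02, 0.683 and 1.41 in jumu OE, against 2.95, 2.60, 2.69 and 2.87 in wild-type. Each of these 3 genotypes lay wholly below wild-type, with log2 fold changes of -1.26, -0.99 and -1.16 (edgeR adjusted p = 4.2e-05, 0.044 and 0.005), while CHES-1-like LOF and OE were not called (0.01 and -0.04). The sum of both copies was 5.55 ± 2.14 CPM in jumu LOF, 4.85 ± 2.43 in double LOF and 4.35 ± 1.83 in jumu OE, against 4.47 ± 0.292 in wild-type (SD, n = 4 each). In double LOF the call of U14:30Ea was lost without double LOF replicate 1 (0.91) or 3 (1.01) or wild-type replicate 1 or 4 (1.05 each), and that of U14:30Eb without wild-type replicate 1 (-0.96) or 4 (-0.98). The host Uhg2 had log2 fold changes from -0.45 to 0.26 and was not called in any of the 5 comparisons.

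The widest differences of single copies lay in the introns of Arpc2, which encodes a subunit of the actin-nucleating Arp2/3 complex. Over 3716 bases of 2L (20418348 to 20422063, plus strand) 10 copies of Psi18S-525 are interspersed with 7 copies of Psi18S-640. Psi18S-640a had 27, 23, 68 and 77 counts in jumu LOF, 17, 10, 70 and 55 in double LOF, 6, 25, 9 and 57 in jumu OE and 11, 13, 15 and 34 in CHES-1-like OE, against 0 in all 4 libraries of CHES-1-like LOF and of wild-type. Against the level of 3 counts per wild-type library it was at least 14.4-fold higher in jumu LOF, 8.60-fold in double LOF, 6.78-fold in jumu OE and 5.55-fold in CHES-1-like OE. Psi18S-525b likewise had 25 to 194 counts in jumu LOF, 24 to 68 in double LOF, 14 to 60 in jumu OE and 22 to 41 in CHES-1-like OE, against no count in CHES-1-like LOF and 1 count in 1 wild-type library. It was at least 26.2-fold, 15.5-fold, 9.03-fold and 10.9-fold higher in those 4 genotypes on the same footing. Both copies thus stood in the same 4 genotypes and were at or near 0 in the same 2.

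Psi18S-525c and Psi18S-525d, which follow in the cluster, showed the same split, whereas Psi18S-640b between them and Psi18S-525a at the start of the cluster did not. Psi18S-525c was at 2.43, 3.31, 3.85 and 2.93 CPM in jumu LOF, 1.20, 3.39, 1.5 and 1.38 in double LOF, 1.93, 2.32, 1.43 and 2.16 in jumu OE and 3.82, 2.46, 1.85 and 1.88 in CHES-1-like OE, with 0.237, 0.292, 0.225 and 0.369 in CHES-1-like LOF and 0.425, 0.533, 0.701 and 0.457 in wild-type. Every library of the first 4 genotypes lay above every wild-type library. Its log2 fold changes were 2.67, 1.85, 1.98 and 2.29 (edgeR adjusted p = 1.7e-09, 0.0027, 3e-05 and 1.5e-05), and -0.76 (edgeR adjusted p = 0.19) in CHES-1-like LOF. For Psi18S-525d they were 2.04, 1.58, 1.44 and 1.46, all called, and -0.28, not called. Psi18S-640b was called in no genotype (0.01 to 0.43), and Psi18S-525a in CHES-1-like LOF alone (0.55).

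At the other end of the cluster Psi18S-640f had 0 counts in all 4 jumu LOF libraries, against 246, 126, 61 and 194 counts in wild-type, at least 34.2-fold lower against 3 counts per jumu LOF library. In double LOF, which carries the same 3R deficiency, it was at 1.74, 2.41, 1.42 and 1.78 CPM, against 3.49, 2.58, 3.57 and 2.61 CPM in wild-type. These groups did not overlap, and the log2 fold change was -0.74 (SE 0.19, edgeR adjusted p = 0.017). The adjacent copy Psi18S-525i was at 0.307, 0.191, 0.331 and 0.224 CPM in jumu LOF and 2.51, 3.57, 2.11 and 3.45 in jumu OE, against 1.29, 0.861, 0.351 and 1.45 in wild-type. Its jumu LOF libraries all lay below wild-type, unlike those of the first copies, and its jumu OE libraries all lay above, with log2 fold changes of -1.93 (SE 0.34, edgeR adjusted p = 0.00015) in jumu LOF and 1.44 (SE 0.28, 0.0017) in jumu OE. Arpc2 itself was called in no genotype, with log2 fold changes of 0.06 to 0.22.

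Summed over copies the differences were narrower. The 10 Psi18S-525 copies in Arpc2 summed to 18 ± 2.68 CPM in jumu LOF, 14 ± 1.78 in CHES-1-like LOF, 16.3 ± 5.73 in double LOF, 15.7 ± 2.88 in jumu OE and 18 ± 8.80 in CHES-1-like OE, against 11.2 ± 0.230 in wild-type (SD, n = 4 each). The 7 Psi18S-640 copies summed to 20.4 ± 3.72, 21.6 ± 2.33, 18.8 ± 3.27, 17.8 ± 5.97 and 22.7 ± 3.10 CPM in the same genotypes, against 18.7 ± 2.78 in wild-type. How far reads of 1 copy were placed on another was not tested.

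**Figure D3:**
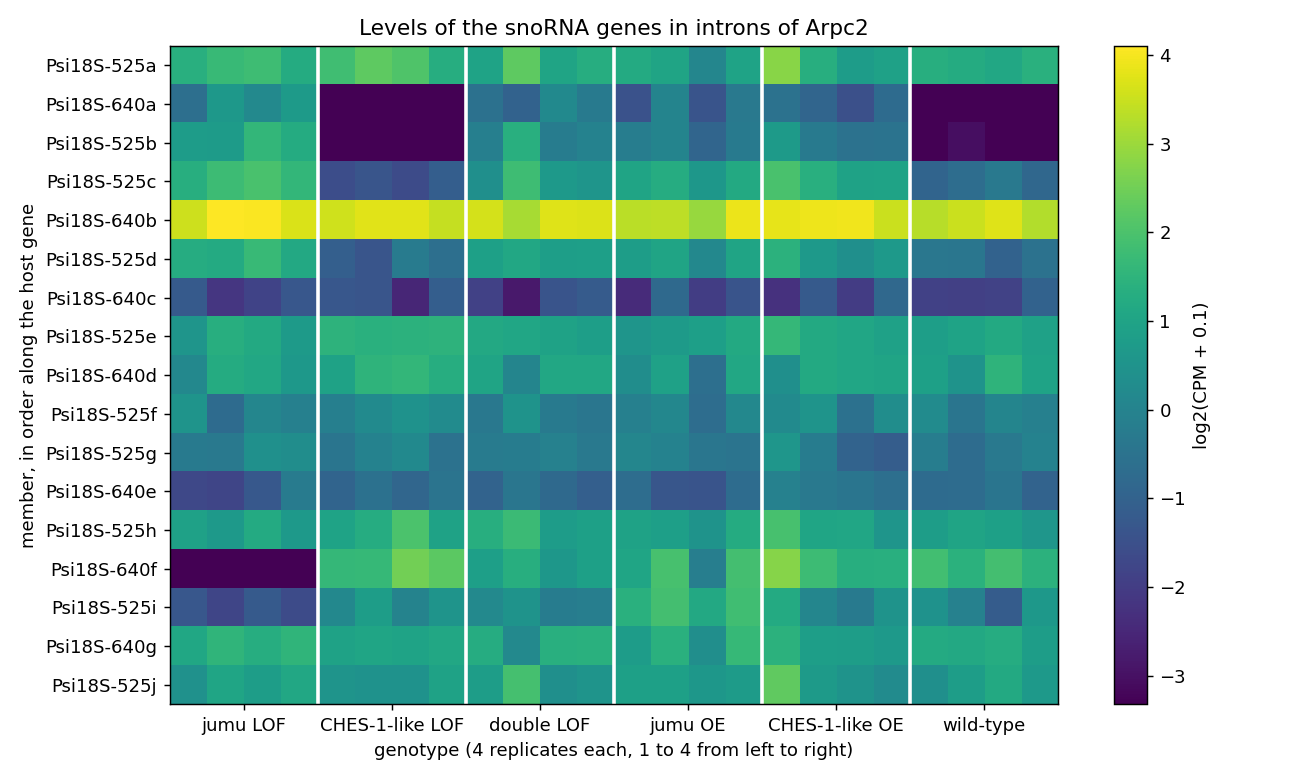
Level of the 17 snoRNA copies in the Arpc2 introns as log2(CPM + 0.1), rows in order along the host, columns the 4 replicates of each genotype. Psi18S-640a and Psi18S-525b are empty in CHES-1-like LOF and nearly so in wild-type, and Psi18S-640f is empty in jumu LOF.

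Psi18S-1347b, in an intron of pAbp (the poly(A)-binding protein gene, arm 2R), was called higher in the 2 jumu-deficient genotypes. It was at 40.9, 42.0, 48.9 and 41.5 CPM in jumu LOF and 22.8, 10.8, 22.6 and 19.1 CPM in double LOF, against 8.32, 8.06, 9.99 and 7.37 CPM in wild-type. All values of both genotypes were above wild-type, and jumu LOF was above double LOF throughout. The log2 fold changes were 2.41 (SE 0.08, edgeR adjusted p = 3.2e-16) and 1.19 (SE 0.20, 0.0014), and the interaction was -1.58 (SE 0.27, 0.00044). The other 3 genotypes were not called (0.37 in CHES-1-like LOF, -0.02 in jumu OE and -0.04 in CHES-1-like OE), nor was pAbp in jumu LOF (0.13). The 3 copies of Psi18S-1347 summed to 98.3 ± 12.6 CPM in jumu LOF, 77.6 ± 12.8 in CHES-1-like LOF, 56.1 ± 15.1 in double LOF, 48.9 ± 7.12 in jumu OE and 55.7 ± 10.7 in CHES-1-like OE, against 55.5 ± 3.62 CPM in wild-type (SD, n = 4 each). The sums of jumu LOF and CHES-1-like LOF lay wholly above wild-type, and those of double LOF overlapped it.

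Further box H/ACA genes were called higher in jumu LOF. Psi28S-2648, in RpL36A (2L, 8042189 to 8042350, minus strand), was at 23.2, 39.1, 40.8 and 31.3 CPM in jumu LOF and 23.0, 8.05, 28.3 and 25.9 in double LOF, against 8.64, 11.4, 11.0 and 9.13 in wild-type. Jumu LOF lay wholly above wild-type, and double LOF did so except for replicate 2. The log2 fold changes were 1.77 (SE 0.13, edgeR adjusted p = 5.6e-10) and 1.11 (SE 0.30, 0.019). Psi28S-3186, in kra (3R, 5598015 to 5598157, minus strand), was at 10.8, 19.4, 23.8 and 19.0 CPM in jumu LOF and 10.1, 15.3, 10.6 and 20.1 in jumu OE, against 5.88, 6.71, 7.01 and 6.86 in wild-type. It was higher in both the loss and the gain of jumu, with log2 fold changes of 1.49 (SE 0.16, edgeR adjusted p = 1.3e-07) and 1.12 (SE 0.18, 0.0003). It was also called in double LOF (0.98) and lower in CHES-1-like LOF (-0.55), but these calls were lost in double LOF without replicate 1, 3 or 4 or wild-type replicate 1 or 2 (0.82 to 0.99) and in CHES-1-like LOF without replicate 1 (-0.45) or 4 (-0.49).

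Psi28S-2622 (3L, 1488906 to 1489045, plus strand) has no gene on its own strand but lies opposite stet, and the strand setting of the counting is not given in the sources used here. It was at 236, 226, 247 and 202 CPM in jumu LOF, 136, 189, 145 and 210 in jumu OE and 49.7, 82.2, 56.1 and 49.9 in CHES-1-like OE, against 131, 107, 116 and 103 in wild-type. All 4 libraries were above wild-type in jumu LOF and jumu OE and below it in CHES-1-like OE. The log2 fold changes were 1.01 (SE 0.07, edgeR adjusted p = 1.4e-10), 0.58 (SE 0.12, 0.003) and -0.92 (SE 0.14, 0.00011), of which the second was 0.47 and not called without jumu OE replicate 4. Psi18S-176 (arm 2R), the most abundant H/ACA gene, was at 633, 1088, 992 and 865 CPM in jumu LOF, against 484, 576, 552 and 411 CPM in wild-type. The groups did not overlap, with a log2 fold change of 0.84 (SE 0.12, edgeR adjusted p = 9.2e-06), and no other genotype was called.

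Psi28S-1180, in an intron of the chromatin protein gene tou (arm 2R), was called higher in 4 genotypes. It was at 91.7, 98.3, 116 and 107 CPM in jumu LOF, 83.9, 106, 107 and 95.5 in CHES-1-like LOF, 57.2, 103, 68.8 and 68.1 in double LOF, 105, 85.2, 48.2 and 119 in jumu OE and 262, 224, 230 and 214 in CHES-1-like OE, against 59.7, 58.3, 62.1 and 57.9 in wild-type. Both single losses and CHES-1-like OE lay wholly above wild-type, and CHES-1-like OE stood above every other library. The log2 fold change was 1.99 (SE 0.08, edgeR adjusted p = 7.7e-10) in CHES-1-like OE, where its host tou was called lower (-1.19, 9.3e-09). It was 0.81 in jumu LOF and 0.73 in CHES-1-like LOF (edgeR adjusted p = 5.8e-10 and 5.3e-09), with an interaction of -1.22 (SE 0.18, 0.00014), which was -0.17 under library totals and -0.52 with libraries scaled to summed snoRNA counts and called in neither. Jumu OE gave 0.60, and 0.43 and no call without its replicate 4.

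**Figure D4:**
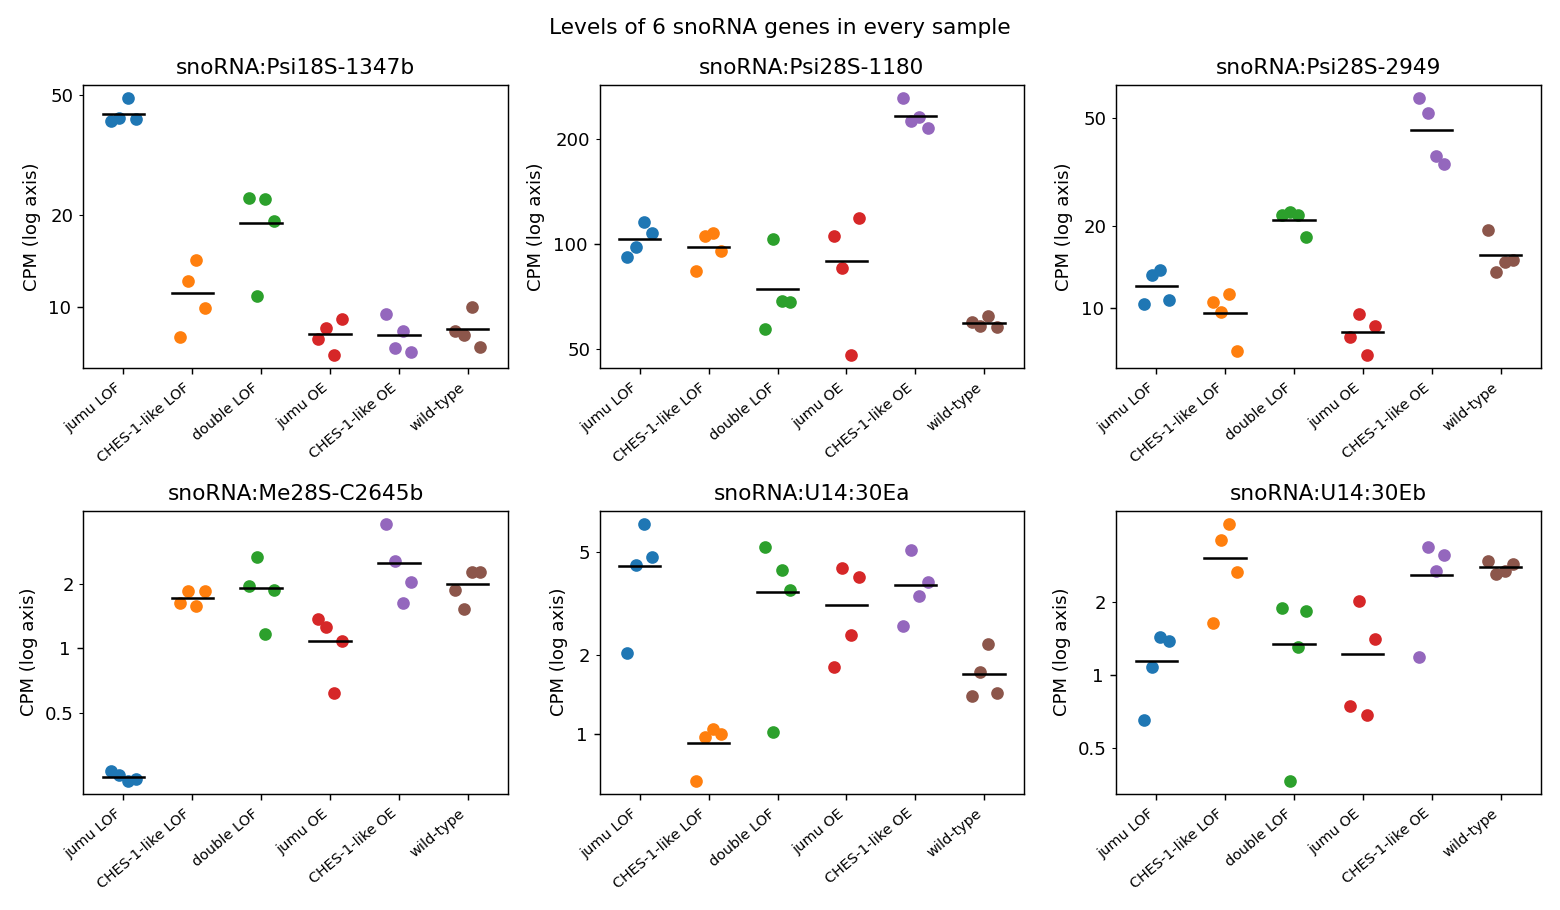
Level in CPM, on a log axis, of 6 snoRNA genes in each of the 24 libraries, by genotype, with a bar at the mean of 4. Psi28S-1180 is highest in CHES-1-like OE (214 to 262 CPM against 57.9 to 62.1 CPM in wild-type) and Psi18S-1347b in jumu LOF (40.9 to 48.9 CPM against 7.37 to 9.99 CPM in wild-type).

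Psi28S-2949 and Or-aca5 lie in the same host, Uhg4 (arm 2R). Psi28S-2949 was at 10.5, 9.64, 11.2 and 6.94 CPM in CHES-1-like LOF, 7.78, 9.49, 6.71 and 8.59 in jumu OE and 59.5, 52.2, 36.2 and 33.8 in CHES-1-like OE, against 19.3, 13.6, 14.8 and 15 in wild-type. It was below wild-type in every library of the first 2 and above it in every library of the third, with log2 fold changes of -0.74 (SE 0.12, edgeR adjusted p = 6.4e-05), -0.94 (SE 0.12, 5.4e-05) and 1.54 (SE 0.17, 5.7e-06). Its interaction was 1.54 (SE 0.20, 2.8e-05). Or-aca5 was at 309, 124, 336 and 306 CPM in double LOF, against 422, 491, 479 and 424 CPM in wild-type, with no overlap and a log2 fold change of -0.74 (SE 0.24, edgeR adjusted p = 0.047), which was no longer called without wild-type replicate 2 (-0.71) or 3 (-0.72). No other genotype was called for Or-aca5, and Uhg4 was called in none.

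Me28S-C2645b, a methylation guide in Uhg3 (2L, 20648051 to 20648125, plus strand), was at 0.266, 0.255, 0.240 and 0.244 CPM in jumu LOF, which are 13, 4, 16 and 12 counts, and at 1.36, 1.25, 0.621 and 1.08 CPM in jumu OE, against 1.87, 1.52, 2.28 and 2.27 CPM in wild-type. Both genotypes lay below wild-type throughout. The log2 fold change was -2.95 (SE 0.25, edgeR adjusted p = 4.3e-09) in jumu LOF, where Uhg3 was also called lower (-0.64), and -0.88 (SE 0.24, 0.019) in jumu OE. Double LOF, at 1.95, 2.66, 1.17 and 1.87 CPM, overlapped wild-type (-0.07), and the interaction was 3.05 (SE 0.35, 4.2e-06).

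RpL28 (3L) carries 5 snoRNA genes, of which 3 box C/D genes were called lower in jumu LOF and in double LOF. Or-CD12 (3221350 to 3221427, minus strand) was at 0.858, 0.7, 0.947 and 1.38 CPM in jumu LOF and 1.54, 0.694, 0.987 and 1.01 in double LOF, against 1.86, 2.03, 2.45 and 2.73 in wild-type. Both were wholly below wild-type, with log2 fold changes of -1.15 (SE 0.21, edgeR adjusted p = 0.0002) and -1.09 (SE 0.24, 0.0064). Me28S-C3351 gave -1.16 and -0.70 in these genotypes and 0.75 in CHES-1-like OE, and Or-CD11c gave -1.10 and -1.39 and, in CHES-1-like LOF, -0.90. All 3 had means of at most 2.27 CPM in any genotype. The host itself had log2 fold changes of 0.31 in jumu LOF and 0.19 in double LOF and was not called. The calls of Me28S-C3351 in double LOF and of Or-CD11c in CHES-1-like LOF were each lost without any 1 of 5 libraries, with values from -0.77 to -0.52 and from -0.97 to -0.70: these were double LOF 3 and 4 and wild-type 1, 2 and 4 for the first, and CHES-1-like LOF 3 and 4 and wild-type 1, 2 and 3 for the second.

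RpS5a (X, minus strand) carries 14 H/ACA members, and neighbouring copies differed in direction. Psi28S-1135f (17145384 to 17145534) was at 73.2, 66.3, 76 and 67.0 CPM in jumu LOF, 61.9, 67.4, 74.4 and 59.7 in CHES-1-like LOF and 34.0, 24.6, 32.0 and 34.6 in double LOF, against 43.7, 39.9, 41.9 and 37.7 in wild-type. Each single loss lay above wild-type and the double loss below it. The log2 fold changes were 0.81 and 0.70 (edgeR adjusted p = 2.4e-10 and 1.7e-08) and -0.37, which missed the fold threshold (0.031), and its interaction of -1.88 (SE 0.14, 9.5e-09) had the smallest p of all snoRNA genes. Under library totals the interaction was -0.82 and still called.

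Psi28S-1135e (17145730 to 17145880), another copy in RpS5a, was at 12.5, 11.2, 14.6 and 12.4 CPM in jumu LOF and 28.1, 48.9, 50.8 and 39.3 in CHES-1-like LOF, against 27.6, 23.7, 27.6 and 25.5 in wild-type. The first lay below and the second above wild-type, with log2 fold changes of -1.01 (SE 0.08, edgeR adjusted p = 5.5e-10) and 0.67 (SE 0.12, 0.00012). The call in double LOF (-0.54) was lost without double LOF replicate 2 (-0.36) or wild-type replicate 1, 3 or 4 (-0.51 to -0.55). Beside it, Psi18S-1854a (17145903 to 17146041) was at 18, 31.4, 24.6 and 30 CPM in jumu OE, against 42.4, 49.7, 61.1 and 48.8 CPM in wild-type, without overlap and with a log2 fold change of -0.93 (SE 0.14, edgeR adjusted p = 0.00023). Its call in jumu LOF (0.58) was lost without jumu LOF replicate 3 (0.46) or 4 (0.49). Psi18S-1854b and Psi18S-1854c were called lower in jumu LOF (-0.75 and -0.80) and in jumu OE (-0.86 and -0.77). The 3 copies of Psi18S-1854 summed to 306 ± 106 CPM in jumu LOF and 256 ± 44.4 CPM in jumu OE, against 453 ± 38.9 CPM in wild-type (SD, n = 4 each). In jumu LOF the sum was 148 CPM in replicate 1 and 346 to 367 CPM in the other libraries, all below the 414 to 504 CPM of wild-type. RpS5a was called in no genotype.

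Among members in other ribosomal protein genes, Psi18S-1295 in RpS20 (3R, 20822610 to 20822749, plus strand) was at 8.31, 6.86, 9.16 and 8.17 CPM in double LOF and 7.78, 10.5, 7.92 and 12.2 in jumu OE, against 22.2, 19.4, 16.9 and 18.7 in wild-type. Neither overlapped wild-type, and the log2 fold changes were -1.24 (SE 0.12, edgeR adjusted p = 1.8e-05) and -0.99 (SE 0.13, 5.8e-05). In jumu LOF it was -0.62, and -0.50 and not called without replicate 1. Psi28S-1060 in RpL17 (X, 6742852 to 6743001, minus strand) was at 81.4, 79.5, 94.7 and 64.6 CPM in jumu LOF and 93.7, 98.2, 102 and 79.5 in CHES-1-like LOF, against 48.2, 62.7, 57.1 and 44.7 in wild-type. Both single losses lay above wild-type, with log2 fold changes of 0.61 and 0.83 (edgeR adjusted p = 4.2e-05 and 4.2e-08), while double LOF gave 0.19 and was not called. Psi28S-3327b in RpS4 was called higher in CHES-1-like LOF alone (0.65, 2e-05). Under library totals the CHES-1-like LOF values of Psi28S-1060 (0.26), Psi28S-3327b (0.08), Psi28S-1180 (0.17), Psi28S-1135e (0.11) and Psi28S-1135f (0.14) were no longer called.

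Several more members were called in 1 to 4 genotypes. Psi28S-1837a, in CG10576, was higher in CHES-1-like LOF (0.64) and CHES-1-like OE (0.75) and lower in double LOF (-0.93) and jumu OE (-0.61, and -0.47 and not called without jumu OE replicate 1), and its host was called higher in CHES-1-like OE (0.96). Psi18S-841c, in the chromatin-remodeller gene dom, was higher in double LOF (0.91), where dom was called lower (-0.54). It was also called in CHES-1-like OE (0.64, and 0.41 and not called without its replicate 1) and in jumu LOF (0.57, not called without jumu LOF replicate 3 or wild-type replicate 2, at 0.43 and 0.48). Psi28S-3316c in the same host was lower in jumu OE (-0.77) and CHES-1-like OE (-0.65), the first not called without wild-type replicate 1 (-0.68). SC35-a, in the splicing-factor gene SC35, was higher in CHES-1-like LOF (0.72) only, and 0.17 and not called under library totals.

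Of the remaining abundant genes, Psi18S-531 was at 172, 50, 200 and 172 CPM in double LOF, against 276, 360, 368 and 275 CPM in wild-type. Double LOF lay wholly below wild-type, lowest in replicate 2, with a log2 fold change of -1.09 (SE 0.32, edgeR adjusted p = 0.031). Under library totals this value (-0.76) was no longer called, nor were the lower double LOF values of U3:9B (-0.21), U14:30Eb (-0.65), Psi18S-640f (-0.42), Or-aca5 (-0.41), Me28S-C3351 (-0.37), Psi28S-1135e (-0.21) and Psi28S-1837a (-0.59), while Or-CD11c (-1.06), Or-CD12 (-0.76) and Psi18S-1295 (-0.91) were still called. The same scaling ended the calls of Psi18S-1854a (0.39), Psi18S-841c (0.40) and Psi28S-1060 (0.43) in jumu LOF and of Psi28S-1837a (-0.57), Psi28S-3316c (-0.74), U31:54Ed (-0.92) and snR38:54Ec (-0.70) in jumu OE. Psi28S-3342 was called higher in CHES-1-like LOF (0.55), a call lost without CHES-1-like LOF replicate 2 (0.40) or 3 (0.36) or wild-type replicate 2 (0.45) or 4 (0.50). Psi28S-291, Psi28S-2566 and Tudor-SN-a were called in none of the 5 comparisons.

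The members of lowest level among those named are box C/D or unclassed genes with few counts. CD-24 in RpS3A had 7, 9, 7 and 13 counts in CHES-1-like OE, against 7, 2, 0 and 7 in wild-type, and its log2 fold change of 1.6 was not called without CHES-1-like OE replicate 2 (1.45) or wild-type replicate 2 (1.41). MeU6-C68, a guide for the spliceosomal U6 RNA, had 3, 3, 2 and 8 counts in jumu OE, against 22, 13, 7 and 18 in wild-type, with a log2 fold change of -1.54 (edgeR adjusted p = 0.027). Me18S-A934 was lower in CHES-1-like OE (-0.87), except without CHES-1-like OE replicate 4 (-0.74) or wild-type replicate 1 (-0.73). In Uhg1, Me28S-G3081a was lower in CHES-1-like LOF (-0.63) and higher in CHES-1-like OE (0.71), snR38:54Eb likewise (-0.71 and 0.68), snR38:54Ec was lower in CHES-1-like LOF (-0.90) and jumu OE (-0.73), and U31:54Ed was lower in jumu OE (-0.95). Uhg1 itself was called higher in CHES-1-like OE (0.58) and lower in jumu OE (-0.53). The CHES-1-like LOF calls of these Uhg1 members and both jumu OE calls were lost without 1 to 5 single libraries each, replicates of wild-type among them in every case.

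Few called snoRNA genes had a host that was also called. The shares of all genes called, given above for each comparison, are the background of such counts. Of the called members whose host was kept by the filter, the host was called the same way for 1 of 36 in jumu LOF, 0 of 28 in CHES-1-like LOF, 5 of 41 in double LOF, 2 of 35 in jumu OE and 8 of 43 in CHES-1-like OE, and called the opposite way for 0, 0, 2, 0 and 1. Without regard to the host's call, its log2 fold change had the sign of the member's for 21 of the 36, 17 of the 28, 24 of the 41, 30 of the 35 and 37 of the 43. With each host counted once, the median host log2 fold change was 0.20 in CHES-1-like OE and between -0.04 and 0.03 in the other 4. In CHES-1-like OE most hosts were thus positive and most called members were higher, so matching signs there do not show that member and host moved together. Among the hosts with most members, Uhg1 (-0.53), Uhg5 (-0.43), RpS5a (-0.20), kra (-0.07) and dom (-0.02) were negative in jumu OE and Arpc2 (0.10) positive. Most called members were lower in jumu OE, so the same limit holds for its matching signs. The share of hosts of either sign over all members was not counted in any comparison. Across members with a kept host, Pearson's r between the log2 fold change of the member and of its host was 0.08, 0.27, 0.11, 0.26 and 0.04 in the 5 comparisons over 196 to 199 members, which share hosts and libraries. Reads of a host precursor can fall on an intronic snoRNA gene, reads of a spliced host can fall on the 18 members that overlap a host exon, and the part of either in these values was not tested.

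**Figure D5:**
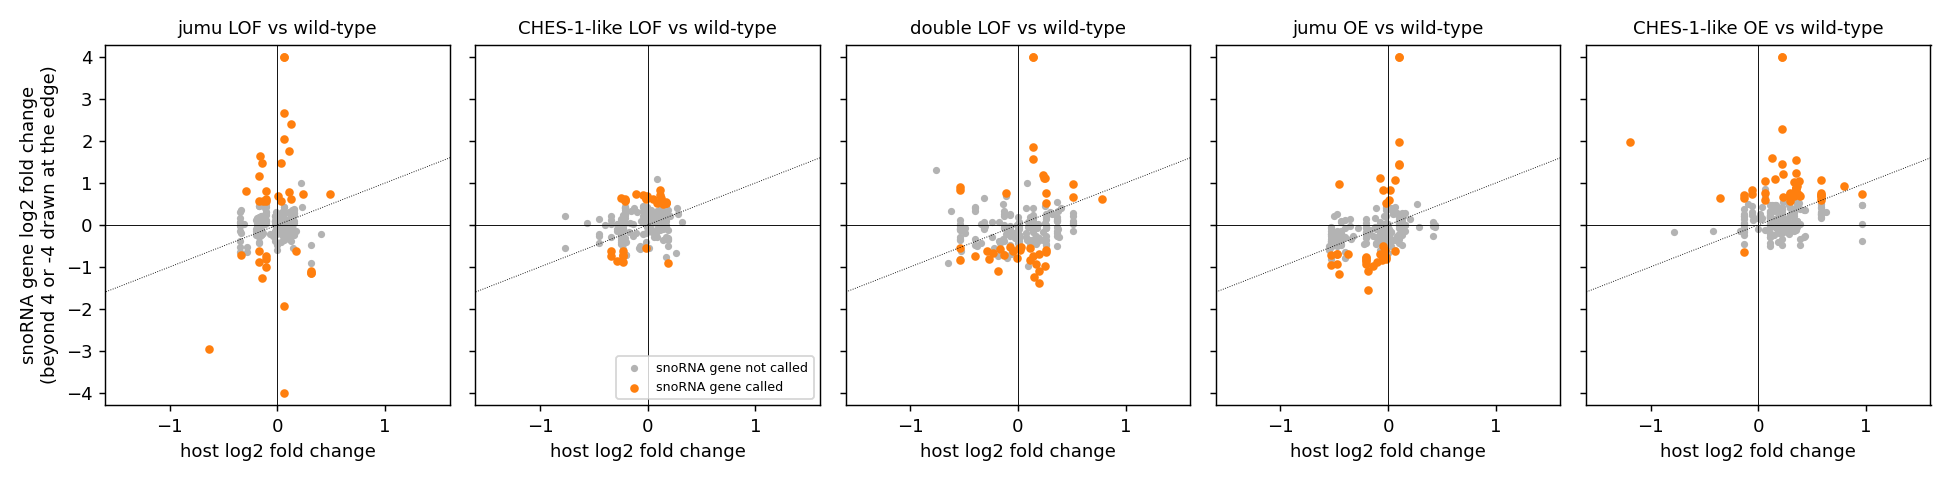
Log2 fold change against wild-type of each snoRNA gene (vertical, cut at 4 in either direction) and of its host gene (horizontal), 1 panel per genotype, with called members in colour and a dotted line of equal change. The host was called the same way for 1 of 36 called members in jumu LOF and 8 of 43 in CHES-1-like OE. Of all genes 9.83% were called higher and 9.54% lower in jumu LOF, and 16.7% higher and 16.5% lower in CHES-1-like OE.

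Genes for the proteins of the snoRNA particles did not reach the threshold for a call. None of the 4 core box C/D proteins (Fib, nop5, Nop56, hoip), the 4 core box H/ACA proteins (Nop60B, CG7637, NHP2, CG4038) or the 4 listed proteins of the U3 processome (Mpp10, CG1789, wcd, l(3)72Dn) was called against wild-type in any of the 5 comparisons by edgeR or by DESeq2. At an unadjusted edgeR p under 0.05, 4 box C/D, 3 box H/ACA and 3 processome genes had negative log2 fold changes in jumu OE, and 3, 4 and 4 had positive ones in CHES-1-like OE. In jumu LOF 2 H/ACA genes were positive and 3 processome genes negative at that level, in CHES-1-like LOF 3 box C/D, 2 H/ACA and 1 processome genes were negative, and in double LOF 1 box C/D gene and 1 H/ACA gene were negative and 2 H/ACA genes positive. Of 10 genes of the nucleolus and RNA polymerase I, 4 were called higher in CHES-1-like OE, where 16.7% of all genes were called higher and 16.5% lower. They were the polymerase subunits RpI1 (0.82) and RpI135 (0.57), the initiation factor Tif-IA (0.62) and Nnp-1 (0.50). In the other 4 comparisons none was called by edgeR or DESeq2, and 2 higher and 5 lower in jumu LOF, 0 and 6 in CHES-1-like LOF, 3 and 3 in double LOF and 1 and 8 in jumu OE had an unadjusted p under 0.05. Of the 7 Uhg transcripts, Uhg1 and Uhg3 (0.63) were called higher in CHES-1-like OE, Uhg3 lower in jumu LOF, Uhg7 lower in CHES-1-like LOF (-0.77) and Uhg1 and Uhg8 (-0.55) lower in jumu OE. All counts of these short lists are to be read beside the shares of all genes called in each comparison, given above.

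Other short RNAs moved in their own ways. Of 29 kept snRNA genes (spliceosomal RNAs for the most part, with U7 and 7SK among the others), 9 were called higher in CHES-1-like LOF, 6 of them U5 genes, and 6 were called lower in CHES-1-like OE. In jumu LOF 3 were lower, in double LOF 1, and in jumu OE 4 were higher and 4 lower. These calls used the TMM factors. As a share of all counts, snRNA genes were lower in CHES-1-like LOF, at 1.348% to 1.481%, against 1.498% to 1.784% in wild-type. The higher calls there thus do not show a larger share of all counts, and the part of the scaling in them was not tested. The guides of the Cajal body (scaRNAs) gave 1 higher and 2 lower of 14 in jumu LOF, 2 higher of 15 in CHES-1-like LOF, 1 lower of 15 in double LOF, 1 higher and 1 lower of 15 in jumu OE and 1 higher and 2 lower of 14 in CHES-1-like OE. Transfer RNA genes, with few counts in these libraries, gave 26 higher and 5 lower of 123 in jumu LOF, 1 and 7 of 106 in CHES-1-like LOF, 16 and 3 of 117 in double LOF, 35 and 1 of 120 in jumu OE and 2 and 6 of 96 in CHES-1-like OE. The background of these counts is the share of all genes called in each comparison, given above.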

How the data were processed

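RNA from sorted mesodermal cells was made into stranded total-RNA libraries and aligned by the authors with TopHat2 to the Release 6 Drosophila genome. The deposited table gives raw counts per gene for 24 libraries, without normalization. The submitters' processing notes also name HTSeq and SAMtools, and their versions and the strand setting of the counting are not given in the sources used here. Positions and hosts were taken from an annotation of the same assembly. The rule for members, which uses the name alone, and the lists were set with earlier results of these data known. Each genotype was fitted with wild-type alone (8 libraries), the interaction over 16 and the difference among the 6 genotypes over all 24, in edgeR 4.0.16 (R 4.3.3) with TMM factors and the quasi-likelihood F test. Genes with at least 1 count were fitted, p-values were adjusted by Benjamini-Hochberg over all 17476 genes, the lowest 30% by mean log CPM were then set aside, and calls needed a False Discovery Rate under 0.1 and a log2 fold change beyond 0.5. SE is the log2 fold change divided by the square root of F. Levels are CPM with TMM factors, and log2 CPM uses a prior count of 2.

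Named genes were those kept by the filter that were, per comparison, up to 6 called higher and 6 called lower with the largest change and no overlap with wild-type, the 10 highest in wild-type, the 5 called in most comparisons, the 5 called with the smallest interaction p, and all U3 and U14 genes. Alternatives were DESeq2 1.42.0, other scaling, filters and thresholds, 1 fit of all libraries, a replicate term, and each library left out in turn. Scripts were tested on simulated counts. Depth limits genes with few counts most. The labels call the replicates biological, and p-values measure the spread between these 4 libraries.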

Additional observations from a re-analysis of the deposited data

Results flagged for a closer look

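Among 283 sets of 4 libraries examined (the named snoRNA genes as log2 CPM, and library measures, per genotype), 27 held 1 library set far from the 3 others by Dixon's criterion, where chance gives about 1 in 20, or 14.15. Double LOF replicate 2 was the library in 14 of the 27. There it was low for Or-aca5 (6.96, against 8.26 to 8.39 in the 3 other double LOF libraries), Psi18S-1854a (3.35), Psi18S-531 (5.65), Psi28S-1135e (3.31), Psi28S-1837a (0.82), Psi28S-2622 (4.36), Psi28S-2648 (3.02), Psi28S-291 (5.89), Psi28S-3186 (2.06), Psi28S-3316c (-0.70), Tudor-SN-a (7.93) and snR38:54Eb (-0.70). It was high for Psi18S-525b (1.34) and SC35-a (7.05). The same library had the lowest shares of snoRNA and 7SL counts in its genotype, and their part in these values was not tested.

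The libraries numbered 1 of jumu LOF, CHES-1-like LOF and CHES-1-like OE stood apart for 8 further sets, low in each. In jumu LOF replicate 1 these were Psi18S-1854a (5.01), U3:54Aa (9.74) and U3:54Ab (9.62), in CHES-1-like LOF replicate 1 Psi28S-2566 (7.93), Tudor-SN-a (8.0) and U14:30Ea (-0.50), and in CHES-1-like OE replicate 1 Psi28S-291 (7.39) and Psi28S-3186 (2.58). The others were Me18S-A934 in jumu LOF replicate 4 (-1.51), Me28S-G3081a in jumu OE replicate 3 (-0.033), Psi18S-1347b in jumu LOF replicate 3 (5.61), Psi28S-2949 in double LOF replicate 4 (4.19), and the depth of jumu OE replicate 4 at 67.8 M counts, against 24.1 to 28.8 M in the 3 other jumu OE libraries.

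The effect of jumu loss differed with and without CHES-1-like loss, by the interaction term, for the 5 named genes with the smallest interaction p. The interaction was -1.88 for Psi28S-1135f, 8.89 for Psi18S-640f, 3.05 for Me28S-C2645b, 1.54 for Psi28S-2949 and -1.22 for Psi28S-1180. Under library totals these were -0.82, 9.82, 4.07, 2.57 and -0.17, the last no longer called. The value for Psi18S-640f is set by a group at 0 counts and is no measure of size.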

How the results depend on the processing

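Counts of called snoRNA genes stayed within 1.5 times under DESeq2, RLE factors, both other filters, a stricter threshold and the replicate term. They moved in CHES-1-like LOF to 90 under library totals (all lower), 16 in 1 fit of all libraries and 11 scaled to summed snoRNA counts (chosen after seeing the data), and in the interaction to 128, 16 (also chosen after seeing the data) and, without double LOF replicate 2, 61. Over all genes CHES-1-like LOF moved from 1887 calls to 6535 under library totals. Leaving out each library gave 38 to 52 snoRNA calls in jumu LOF, 20 to 44 in CHES-1-like LOF, 30 to 48 in double LOF, 32 to 47 in jumu OE, 39 to 63 in CHES-1-like OE, 29 to 61 for the interaction and 109 to 144 among the 6 genotypes, and 2237 to 2395, 1620 to 1868, 2591 to 3227, 1619 to 2072 and 3811 to 4239 calls over all genes in the 5 comparisons. Without ribosomal RNA in the total, the snoRNA share was 1.51% in jumu LOF, 1.34% in CHES-1-like LOF and 1.58% in CHES-1-like OE, against 1.56% in wild-type. The libraries of CHES-1-like LOF then overlapped those of wild-type.

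In CHES-1-like LOF under library totals, values near 0 turned to -0.58 for Psi18S-531, -0.52 for U14:30Eb, -0.56 for U3:54Aa and -0.58 for U3:54Ab, each then called lower. Psi28S-3342 turned to -0.039 and was no longer called. Of the planned results for named genes 2305 kept their side of the threshold, 15 gained a call with the same sign, 5 changed both call and sign and the others lost a call. Values that changed sign without a change of call are among the 2305. Causes were not tested beyond the scaling itself. The labels name no batch shared by a replicate number, but sample names run in sets of 1 library per genotype by number. The 20 same-number pairs with wild-type correlated at -0.097 to 0.153. The 4 over 0.1 were all of replicate 1 (0.122 in jumu LOF, 0.134 in CHES-1-like LOF, 0.153 in jumu OE and 0.133 in CHES-1-like OE), the libraries with few snoRNA counts in those genotypes, and 7 libraries correlated best with their own number. Pairs of unlike number reached as far, from -0.161 (jumu OE replicate 3 with wild-type replicate 1) to 0.156 (CHES-1-like OE replicate 3 with wild-type replicate 2). Values over 0.1 were thus not confined to pairs of the same number. The replicate block gave 42, 32, 39, 38, 60 and 40 calls, lost U14:30Ea (0.96) and Me28S-C3351 (-0.64) in double LOF and Psi18S-1854a in jumu LOF (0.48), and gained Psi28S-2566 in CHES-1-like OE (-0.57). Genes of few counts, mostly box C/D, are the least certain.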
